A study of Mus musculus with 16 samples.

Results

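Lin28a, Lin28b, Dppa2, Dppa3, Dppa4, Dppa5a, L1td1, Utf1, Sall4 and Tcl1 were taken by gene symbol from the deposited gene tables, and in the Oct4 fibroblast table through the Ensembl identifier. All 10 symbols were found among the 20325 gene names of the tables. They are genes known for their restriction to embryonic stem cells (ESC). The rule takes them by name and uses no measured value, although they were proposed with earlier results of these data known. LIN28A and LIN28B are RNA-binding proteins that block maturation of the let-7 microRNAs and bind messenger RNAs of growth and metabolism. DPPA2, DPPA3, DPPA4 and DPPA5A carry the name developmental pluripotency-associated, although they belong to different protein families and do different work on chromatin, DNA methylation and RNA. L1TD1 is an RNA-binding protein derived from a LINE-1 element, UTF1 and SALL4 act in the nucleus of pluripotent cells, and TCL1 is a coactivator of the kinase AKT.

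The study overexpressed the AP-1 subunit c-Jun, the dominant-negative c-JunDN, the AP-1 repressor Jdp2 or the pluripotency factor Oct4 in mouse cells. RNA was sequenced from 13 libraries, 3 of ESC, 6 of mouse embryonic fibroblasts (MEF) and 4 of MEF under reprogramming, and each group has 1 library. The 3 chromatin immunoprecipitation and input samples of the series were not analysed here. The ESC were OG2 cells at passage 5, either wild type or a TetOn line with doxycycline-inducible c-Jun that was taken with or without doxycycline at 36 h. The wild-type ESC are not labelled as given doxycycline, so the drug and c-Jun cannot be told apart. The MEF were OG2 cells at passage 2, wild type or overexpressing DR, c-Jun, c-JunDN, Jdp2 or Oct4. The reprogramming cultures, called KSM after Klf4, Sox2 and c-Myc, were MEF given these 3 factors together with DR, Oct4, c-JunDN or Jdp2 and taken on day 3. All cells are labelled with a mixed background of the 129SVJ, C57B6 and CBA strains. DR was used as the control because both overexpression series contain it, and the labels do not spell it out. The 4 MEF comparisons share the DR library, and the 3 KSM comparisons share the KSM library with DR.

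Levels are given in CPM, read counts scaled to a common library size and corrected for composition. Levels of different genes are compared only in TPM, a relative abundance that also divides by transcript length. A change is the log2 ratio of CPM plus 1. A gene was measured in a comparison when 1 of the 2 libraries reached 5 CPM, and a change of at least 2-fold was called. Intervals are exact 95% intervals of counting error. Since each group is a single library, spread between replicates is unknown and no test was possible. In RNA from a whole culture, fewer cells that express a gene and less RNA of that gene per cell cannot be told apart.

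The deposited counts summed to 12173100 in wild-type ESC and 21415021 in wild-type MEF, against 1837736 to 3440917 in the other libraries. The lowest sum, that of Oct4 MEF, covers only the gene names shared with the other libraries, which hold 96.9% of its counts. A count of 0 therefore allows up to 0.291 CPM in wild-type ESC, 0.195 in wild-type MEF and 0.908 to 1.61 elsewhere, at 3 counts per library. The introduced genes matched the labels. Jun stood at 2175 CPM in the ESC line with doxycycline and 23.2 without, and at 12880 (c-Jun) and 4203 (c-JunDN) in MEF against 94.4 with DR. Pou5f1, which encodes Oct4, stood at 10380 CPM in Oct4 MEF and 1860 in KSM with Oct4, against 2.58 and 4.41 with DR. Jdp2 stood at 7741 CPM in MEF and 403 in KSM, against 82.0 and 3.21 with DR, and Jun at 377.3 CPM in KSM with c-JunDN against 73.0. Introduced and endogenous transcripts cannot be told apart in these tables.

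The RefSeq promoter table (GRCm38.p6) holds 5 of the 10 members. Of these 5, the upstream sequences of the paralogs Lin28a and Lin28b are shown because Lin28b was found in every KSM library and Lin28a had few or no counts there. Those of L1td1 and Utf1 are shown because the results below return to them, and that of Tcl1 is not shown. Each sequence is the 250 bases before the annotated start on the gene's own strand, 5′ to 3′: chr4:134018817-134019066 on the minus strand for Lin28a, chr10:45470202-45470451 on the minus strand for Lin28b, chr4:98726504-98726753 on the plus strand for L1td1 and chr7:139943606-139943855 on the plus strand for Utf1. Capitals mark the SOX core CATTGT.
Lin28a: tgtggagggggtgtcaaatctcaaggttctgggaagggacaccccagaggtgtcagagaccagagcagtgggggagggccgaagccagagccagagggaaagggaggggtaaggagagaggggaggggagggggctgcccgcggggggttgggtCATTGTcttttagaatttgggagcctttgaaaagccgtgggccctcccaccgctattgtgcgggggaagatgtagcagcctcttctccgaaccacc
Lin28b: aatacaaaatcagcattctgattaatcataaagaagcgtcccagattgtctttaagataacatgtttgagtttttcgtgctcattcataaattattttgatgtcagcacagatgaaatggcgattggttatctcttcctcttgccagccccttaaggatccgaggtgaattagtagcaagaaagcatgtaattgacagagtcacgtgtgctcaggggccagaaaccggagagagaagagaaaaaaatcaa
L1td1: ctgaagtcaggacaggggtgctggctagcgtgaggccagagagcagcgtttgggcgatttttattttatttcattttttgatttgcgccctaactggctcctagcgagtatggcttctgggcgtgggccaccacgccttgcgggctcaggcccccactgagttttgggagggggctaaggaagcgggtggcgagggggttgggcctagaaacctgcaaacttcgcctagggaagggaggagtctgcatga
Utf1: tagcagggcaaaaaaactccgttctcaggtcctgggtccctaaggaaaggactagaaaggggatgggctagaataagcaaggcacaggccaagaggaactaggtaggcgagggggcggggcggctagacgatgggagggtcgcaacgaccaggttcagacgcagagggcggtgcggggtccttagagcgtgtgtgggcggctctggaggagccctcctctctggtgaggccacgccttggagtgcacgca
The Lin28a sequence holds 61.2% G and C and 7 CpG pairs, and that of Lin28b 39.2% and 6. L1td1 holds 57.6% with 11 CpG pairs and Utf1 61.6% with 14, while the median of all 32851 promoters of the table is 52.4% with 6 pairs. Both strands were searched for the AP-1 element TGANTCA, the octamer ATGCAAAT and the SOX core CATTGT. The 1 match in the 5 members was the SOX core of Lin28a, 96 to 91 bases before the start, so no motifs overlapped. Of all promoters of the table, 6.75% hold the AP-1 element, 1.6% the octamer and 10.7% the SOX core. No match says only that these letters are not in this window.

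In wild-type ESC all 10 genes were detected, and they spanned a wide range of levels. Dppa5a, an RNA-binding KH-domain protein, led with 7131 TPM and ranked 4 among all genes of that library. L1td1 (223.1 TPM), Dppa3 (207.6) and Sall4 (137.3) followed, then Tcl1 (87.1), Dppa2 (82.4) and Dppa4 (73.9). Utf1 (18.4 TPM), Lin28a (7.72) and Lin28b (1.44) were lowest. The neighbours Dppa2 and Dppa4, whose proteins act as a pair, stood at a TPM ratio of 1.11. With 1 library the spread behind this order is unknown, and neighbouring ranks cannot be separated.

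The uninduced c-Jun line, which is also ESC, held a different order. Dppa5a again led with 6559 TPM (rank 6 among all genes), followed by L1td1 (509.9), Utf1 (455.9) and Lin28a (231.9). Dppa2 (167.3 TPM), Dppa4 (152.9), Sall4 (121.9) and Tcl1 (53.5) lay in the middle, and Lin28b (10.9) and Dppa3 (6.03) were lowest. Lin28a and Utf1 thus stood near the bottom in wild-type ESC and near the top in the uninduced line, and Dppa3 the other way round. The TPM ratio of Lin28a to Lin28b was 5.36 in wild-type ESC, 21.3 without and 14.2 with doxycycline, so the paralog Lin28a was the more abundant in each ESC library.

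**Figure D1:**
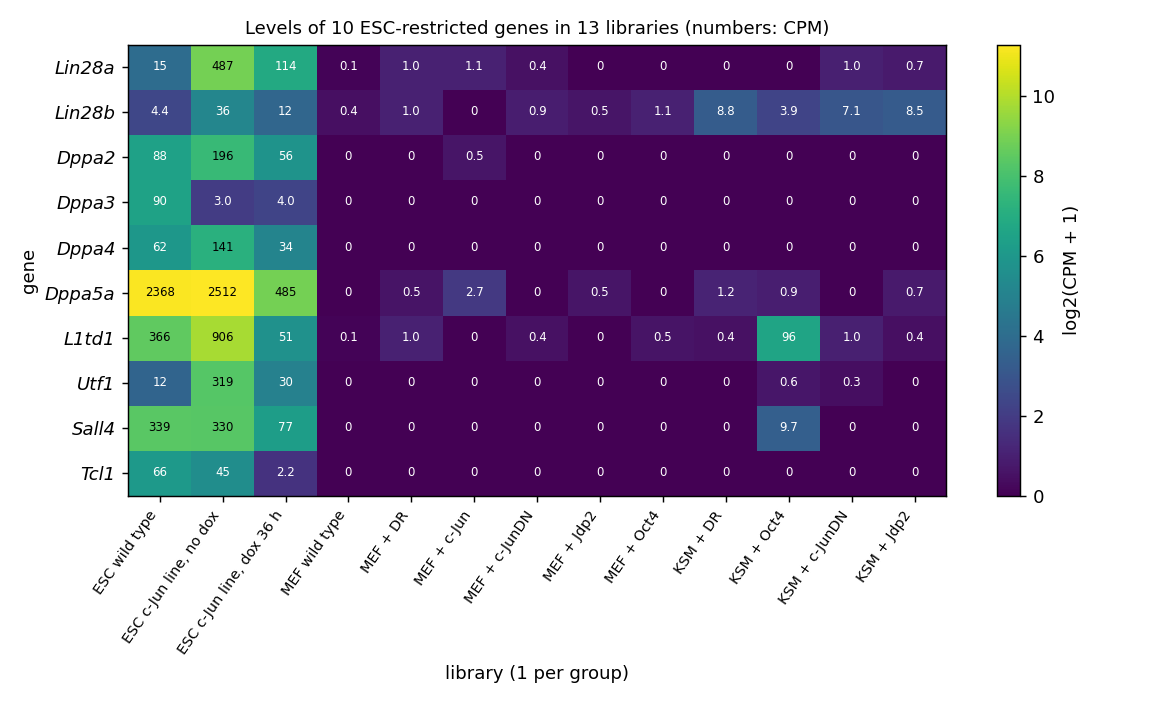
Level of each of the 10 genes in each of the 13 RNA libraries, as log2 of CPM plus 1, with genes in rows, libraries in columns, shade for the level and the CPM printed in each cell. The 3 ESC libraries hold all 10 genes, and outside ESC only L1td1 (95.6 CPM) and Sall4 (9.69) with KSM and Oct4, and Lin28b in 3 KSM libraries, pass 5 CPM.

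With doxycycline, 9 of the 10 genes were lower than in the uninduced line, by 2.86-fold to 20.5-fold. They include both LIN28 genes, Dppa2 and Dppa4, and Sall4. L1td1, Tcl1 and Utf1 moved most, and the interval of Tcl1 overlaps those of L1td1 and Utf1. Dppa3 was near the detection limit on both sides. All 9 measured members were called lower, where 19.7% of 11255 measured genes were called lower and 21.3% higher. Their median log2 change was -2.09, against -0.09 over all measured genes. On the authors' TPM scale the median of all genes moved up by 0.39 and 8 members were called lower, with Lin28b at -0.99. Scaling by total counts moved it up by 0.17 and gave 9 members lower. Over all genes the calls were 2396 higher and 2215 lower, and 3009 and 1141 on the TPM scale.

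Among the RNA-binding members, Lin28a stood at 487.4 CPM without and 113.8 with doxycycline, 4.28-fold lower (3.77 to 4.88, log2 -2.09). Lin28b went from 35.6 to 12.4 CPM, 2.86-fold lower (1.88 to 4.44, log2 -1.45). L1td1 went from 906.1 to 51.2 CPM, 17.7-fold lower (14.9 to 21.2, log2 -4.12). The intervals of L1td1 and of the LIN28 genes do not overlap, so in these libraries L1td1 moved more. Dppa5a went from 2512 to 484.7 CPM, 5.18-fold lower (4.88 to 5.51, log2 -2.37), and fell from rank 6 to rank 92 of all genes on the TPM scale. With doxycycline it still was the most abundant member at 1665 TPM.

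Dppa2 and Dppa4, which bind chromatin together and open early embryonic genes, moved alike. Dppa2 went from 196.3 to 55.6 CPM, 3.53-fold lower (2.92 to 4.28, log2 -1.80), and Dppa4 from 140.9 to 33.6 CPM, 4.19-fold lower (3.3 to 5.36, log2 -2.03). Their intervals overlap, and the TPM ratio of Dppa2 to Dppa4 was 1.09 without and 1.31 with doxycycline. Sall4, a zinc finger protein that recruits the NuRD complex, went from 329.7 to 76.8 CPM, 4.29-fold lower (3.67 to 5.04, log2 -2.09). Utf1, a chromatin-bound protein of pluripotent cells, went from 318.9 to 30.4 CPM, 10.5-fold lower (8.35 to 13.4, log2 -3.35).

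Tcl1 went from 45.0 to 2.19 CPM, 20.5-fold lower (9.06 to 57.3, log2 -3.85), from 91 counts to 6. Dppa3, which encodes Stella, a protein that keeps maternal methylation marks and limits UHRF1, had 6 counts without and 11 with doxycycline. At 2.97 and 4.02 CPM it was not measured in this comparison, and no direction is given. Leaving Dppa5a aside, the summed level of the other members was 2463 CPM without and 380.1 with doxycycline. Levels with doxycycline remained well above those in wild-type MEF, where the same sum was 0.521 CPM.

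**Figure D2:**
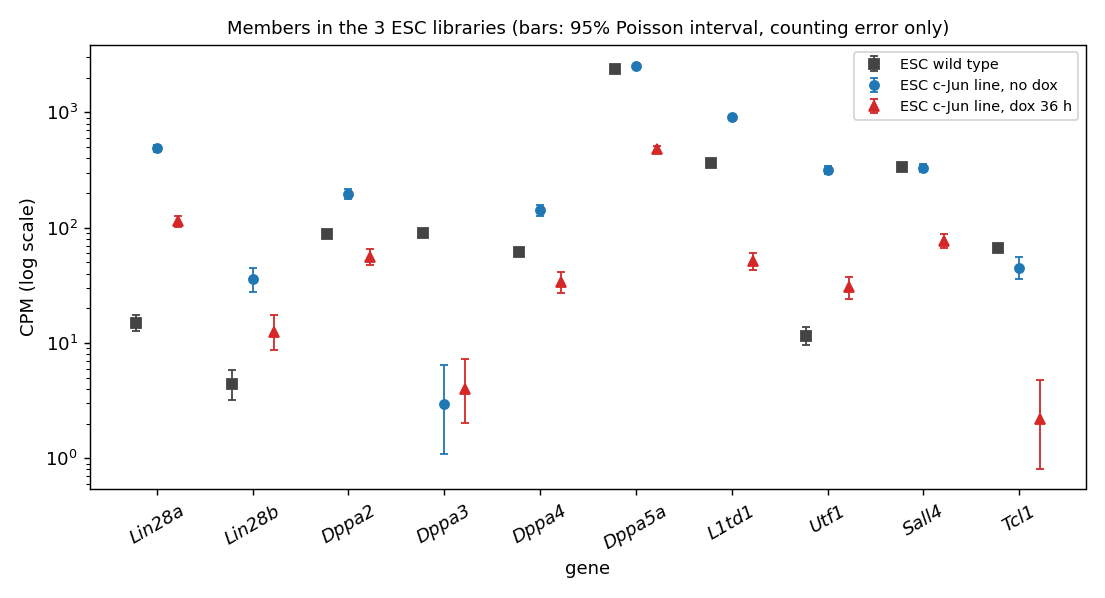
CPM of the 10 genes on a log axis in wild-type ESC (squares), in the c-Jun line without doxycycline (circles) and in the line with doxycycline (triangles), 1 point per library with exact 95% Poisson intervals of counting error. From uninduced to induced 9 genes drop, and against wild type Lin28a, Lin28b and Utf1 stay higher with doxycycline.

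Markers of other cells moved in the same comparison. The summed level of 7 ESC markers was 3457 CPM in wild-type ESC, 4502 without and 830.7 with doxycycline. That of the trophoblast markers was 27.1, 91.9 and 3798 CPM, and that of the epithelial markers 1175, 709.4 and 6255 CPM. Both lists hold Krt8, at 25.2 CPM without and 2356 with doxycycline, and Krt18, at 17.3 and 916.3 CPM. Of 7 measured trophoblast markers 6 were higher and 1 lower, Eomes, from 34.6 to 3.66 CPM. Over all measured genes 21.3% were called higher and 19.7% lower. Fibroblast markers summed to 1487 CPM in wild-type ESC, to 34.6 without doxycycline, where Postn was at 0, and to 689.5 with it, where Lum was at 0. Most of the sum with doxycycline came from Col1a1 (508.1 CPM) and Fbn1 (128.0). Col1a2 (8.90 CPM without, 11.7 with) and Col3a1 (2.47 and 4.02) stayed low. Of the 12 fibroblast markers 6 were measured, with 4 higher and 0 lower. Macrophage markers summed to 38.4, 16.3 and 125.5 CPM in that order, but with doxycycline 7 of the 11 were at 0, the defining C1qa, C1qb, C1qc, Ptprc and Tyrobp among them, and 2 reached 5 CPM. Without doxycycline 9 of the 11 were at 0, and in the deeper wild-type library 0 were. The part of these cell types in the members' changes was not tested.

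The choice of ESC control decided the direction of 3 members. Against wild-type ESC, the induced line had 3 members higher and 5 lower, where 14.6% of 11484 measured genes were called higher and 23.2% lower. Lin28a stood at 15.0 CPM in wild-type ESC and 113.8 with doxycycline, 7.57-fold higher (6.22 to 9.23). Lin28b stood at 4.37 and 12.4 CPM, 2.85-fold higher (1.77 to 4.55), and Utf1 at 11.5 and 30.4 CPM, 2.63-fold higher (1.96 to 3.51). These 3 genes were thus lower than in the uninduced line and higher than in wild type.

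The 5 members lower than in wild type were Dppa3, Dppa5a, L1td1, Sall4 and Tcl1. L1td1 was 7.14-fold lower than in wild-type ESC (6.03 to 8.51), Sall4 4.41-fold (3.84 to 5.1), Dppa5a 4.89-fold (4.62 to 5.17) and Tcl1 30.1-fold (13.8 to 82.4). Of these 5, L1td1, Sall4, Dppa5a and Tcl1 were called lower against both controls. Dppa3 was 22.4-fold lower than in wild type (12.4 to 45.0), a difference already present in the uninduced line. Dppa2 and Dppa4 changed by -0.66 and -0.85 on the log2 scale and were not called.

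The uninduced line and wild-type ESC differed in 7 of the 10 members without any doxycycline. Lin28a, Utf1, Lin28b, L1td1, Dppa4 and Dppa2 were higher in the line and Dppa3 was lower, while 6.34% of 11053 measured genes were called higher and 18.3% lower. The members' median log2 change was 1.16, against -0.18 over all measured genes. DESeq2 size factors moved the median of all genes by 0.17 and left all these calls in place, as did total counts and TPM. Over all genes the calls were 701 higher and 2025 lower, and 956 and 1628 with those size factors. The 2 libraries also differ in depth and in fibroblast markers, which summed to 1487 CPM in wild-type ESC and 34.6 in the uninduced line. Of 9 measured fibroblast markers 9 were lower in the line. The part of depth and of these markers was not tested.

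Lin28a was 32.4-fold higher in the uninduced line (27.3 to 38.6) and Utf1 27.6-fold higher (22.7 to 33.9). Lin28b was 8.15-fold higher (5.54 to 12.1). L1td1 (2.48-fold, 2.34 to 2.62), Dppa4 (2.29-fold, 1.98 to 2.64) and Dppa2 (2.23-fold, 1.97 to 2.51) differed less. Dppa3 went the other way, from 90.0 CPM and 928 counts in wild type to 2.97 CPM and 6 counts, 30.4-fold lower (13.9 to 82.9). Dppa5a (ratio 1.06, 1.03 to 1.09), Sall4 (0.973, 0.894 to 1.06) and Tcl1 (0.68, 0.54 to 0.847) were not called. The ratios of Dppa5a and Sall4 pass to the other side of 1 under other scalings.

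**Figure D3:**
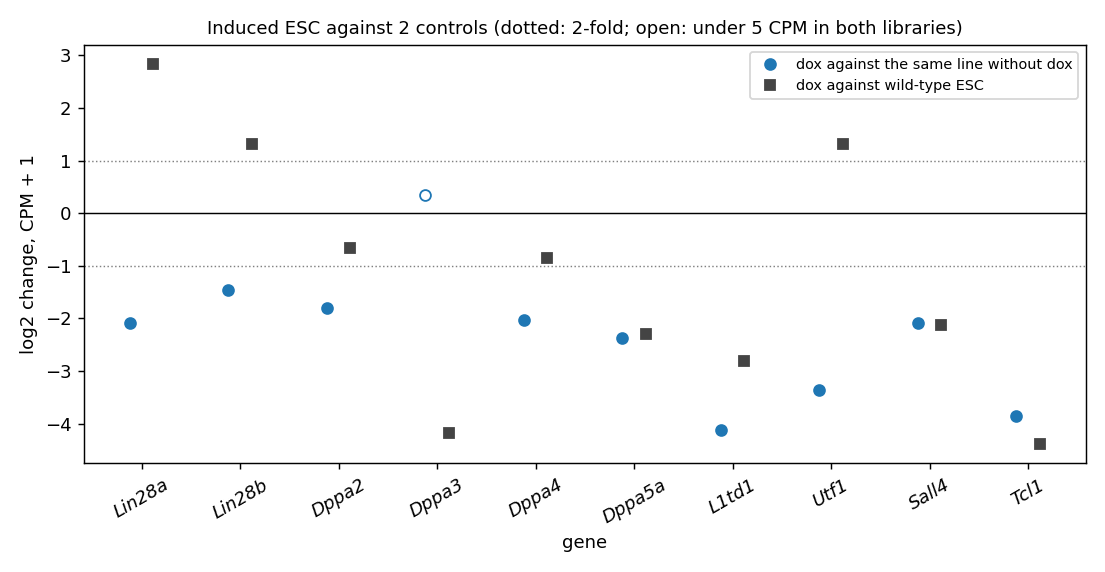
log2 change of each of the 10 genes in the induced line against the uninduced line (circles) and against wild-type ESC (squares), with dotted lines at 2-fold and an open point for Dppa3, which was under 5 CPM in both libraries. Lin28a, Lin28b and Utf1 lie at -2.09, -1.45 and -3.35 against the uninduced line and at 2.84, 1.32 and 1.32 against wild type.

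The genes around the members in their pathways were read from lists, which were written with earlier results of these data known. Of 8 measured genes of the embryo's 2-cell stage, which DPPA2 and DPPA4 are known to activate, 7 were lower with doxycycline and 0 higher, with a median log2 change of -3.22. The shares over all measured genes were 19.7% lower and 21.3% higher. Zscan4c went from 170.5 to 11.0 CPM (log2 -3.84), Zscan4b from 60.8 to 3.66 (-3.73) and Zscan4f from 165.1 to 15.0 (-3.38). These are near-identical copies whose reads the counting may have split, so the values of single copies are uncertain. Zscan4 copies are most of the measured genes of this list, so its counts and medians largely repeat 1 signal. The same list was high in the uninduced line against wild type, with 7 of 8 higher, 0 lower and a median of 3.48. Between these controls 6.34% of all measured genes were called higher and 18.3% lower. Against wild-type ESC the induced line had 5 of these genes measured, with 1 lower and a median of 0.02, and the uninduced library is the one that stands apart.

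Among genes of DNA methylation, in which DPPA3 acts, 6 of 10 were lower with doxycycline and 1 higher, with a median of -1.61. Of all measured genes 19.7% were called lower and 21.3% higher. Dnmt3l, a cofactor of the de novo methyltransferases, went from 546.7 to 31.5 CPM (log2 -4.08), and the methyltransferase Dnmt3b from 686.1 to 55.2 (-3.61). Tet3, which oxidises methylcytosine, went from 7.91 to 220.9 CPM (4.64). Dnmt3l was also unlike between the controls, at 8.73 CPM in wild type, a log2 difference of 5.81. Of the 10 genes, 3 were higher and 2 lower in the uninduced line than in wild type. Their median was -0.06 and turned to 0.01 with total counts and 0.11 with DESeq2 size factors. Between these controls 6.34% of all measured genes were called higher and 18.3% lower.

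The LIN28 and let-7 processing list is read beside the 19.7% of all measured genes called lower and 21.3% called higher, and its counts lie near those shares. Of 17 measured genes 2 were higher and 4 lower with doxycycline, with a median of -0.67, but 0 were lower on the TPM scale. Prkra (1.52) and the uridylyltransferase Zcchc6 (1.33) were higher, and Hnrnpa1, which binds let-7 precursors, was lower (-1.37). Of 24 let-7 target genes 2 were higher and 5 lower, with a median of -0.22 that turned to 0.19 on the TPM scale. The cell cycle gene Ccnd1 (-3.53), the chromatin protein Hmga1 (-3.02) and Mycn (-2.48) were the 3 with the largest changes. The let-7 microRNAs themselves were not measured by these libraries. Of 10 metabolic messages bound by LIN28, Igf2 (4.89) and the insulin receptor substrate Irs2 (2.43) were higher and Pdha1 was lower (-1.39), with a median of -0.28 that turned to 0.11 on the TPM scale.

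The partners of the nuclear members are given complex by complex, beside the same 19.7% lower and 21.3% higher over all genes. Of 9 measured UTF1 partners of polycomb complex 2 and decapping, 5 were lower and 0 higher, among them Mtf2 (-1.94), Jarid2 (-1.66) and Ezh2 (-1.55), with a median of -1.28. On the TPM scale 3 were lower. Of 17 SALL family and NuRD genes 2 were lower and 1 higher, with a median of -0.46, and on the TPM scale 1 was lower and 2 were higher. Sall3, a relative of Sall4, fell by 3.62 and Sall2 by 1.15, and Mbd2 was higher (2.04). Of 13 measured genes of the TCL1 family and AKT, 2 were higher and 3 lower, with a median of 0.18. Total counts gave 3 higher and 1 lower, and the TPM scale 4 higher and 1 lower with a median of 0.56. Akt1 itself was higher (2.74), followed in size by Pdk1 (-1.58) and Pik3cb (1.07).

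Other pluripotency genes moved with the members, and are read beside 19.7% of all measured genes called lower and 21.3% higher. Of 17 measured upstream regulators 11 were lower and 2 higher, with a median of -2.08, and Esrrb (-3.60) and Nanog (-3.14) were among the lower genes. Of 36 other ESC-restricted genes 28 were lower and 2 higher, with a median of -2.79, and Tdh (-4.42), Nr0b1 (-4.38) and Aire (-4.24) led. Germline genes did not move one way, with 3 of 17 higher, 4 lower and a median of 0.12. Those counts lie near the shares over all measured genes. Prdm14 (-2.85), Dmrt1 (-2.82) and Rpl10l (-2.31) showed the largest changes. Of the relatives of Dppa5a in the KHDC cluster 1 of 8 was measured, Ooep, at -3.25.

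In fibroblasts the members were at or near 0. Dppa3, Dppa4 and Tcl1 had 0 counts in all 6 MEF and all 4 KSM libraries. The summed level of the 10 genes was 0.521 to 4.31 CPM across MEF, against 3409 CPM in wild-type ESC. Of the 10, 9 were measured between wild-type MEF and wild-type ESC and 9 were lower in MEF, where 30.2% of 11821 measured genes were called lower and 23.9% higher (3565 and 2828 genes, or 4375 and 2272 with total counts). A gene near 0 in MEF passes the minimum only through its ESC level, so that count had to come out this way and is given as a description. Dppa5a was at least 12100-fold lower, Sall4 at least 1730-fold, Dppa3 at least 461-fold, Dppa2 at least 451-fold, Tcl1 at least 339-fold, Dppa4 at least 315-fold and Utf1 at least 59.1-fold. L1td1 and Lin28a had 1 count each in wild-type MEF, which gives ratios of 5610 (1010 to 222000) and 231 (40.8 to 9180). Lin28b had 6 counts, 0.391 CPM, and was under 5 CPM in wild-type ESC too.

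No member reached 5 CPM in any fibroblast library with an introduced factor. With c-Jun, c-JunDN, Jdp2 or Oct4 against DR, 0 of 10 members were measured in each comparison. Over all genes, c-Jun had 8.22% of measured genes higher and 9.7% lower, c-JunDN 3.28% and 2.85%, Jdp2 5.98% and 6.38%, and Oct4 11.6% and 10.2% (1301 and 1146 genes, or 1861 and 893 on the TPM scale). The highest member count under a factor was 5 counts of Dppa5a with c-Jun, 2.69 CPM (0.874 to 6.28), against 1 count with DR. With Oct4 the members had 2 counts of Lin28b, 1 count of L1td1 and 0 of the other 8, although Pou5f1 stood at 10380 CPM. Between DR and wild-type MEF 0 members were measured too, where 9.81% of measured genes were higher and 10.5% lower (1088 and 1169 genes, or 2078 and 417 with total counts).

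In the KSM libraries 2 members appeared with Oct4 on day 3, and 1 was present throughout. L1td1 had 316 counts with Oct4, 95.6 CPM (85.4 to 106.8), against 1 count with DR, 3 with c-JunDN and 1 with Jdp2. Sall4 had 32 counts with Oct4, 9.69 CPM (6.63 to 13.7), and 0 counts in the 3 other KSM libraries and in all 6 MEF libraries. Both were called higher than with DR, 2 of 3 measured members, where 4.77% of 10834 measured genes were called higher and 6.8% lower. Both passed the minimum only through the Oct4 library, so that count had to come out this way and is a description. The ratio of L1td1 was 239.0 from 1 count with DR (42.5 to 9450), and Sall4 was at least 8.05-fold higher. On the TPM scale Sall4 stood at 4.56, under the minimum of 5, and was not called. Markers of other cells moved in the same comparison. Epithelial markers summed to 123.8 CPM with Oct4 and 788.7 CPM with DR, with 4 of 6 measured markers lower, and trophoblast markers to 52.7 and 583.8 CPM, with 2 of 2 lower and Hand1, Cdx2, Elf5 and Plac1 at 0 in both libraries. Those 2 were Krt8 (41.5 CPM with Oct4, 560.6 with DR) and Krt18 (7.26 and 19.65), which both lists hold. The epithelial markers Epcam (23.9 CPM with Oct4, 14.4 with DR) and Cdh1 (40.9 and 32.9) were not called. Fibroblast markers summed to 1907 CPM with Oct4 and 1985 CPM with DR, with 4 of 12 lower and 0 higher. Their part in the levels of L1td1 and Sall4 was not tested.

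Neither reached its ESC level. L1td1 was 3.82-fold lower with KSM and Oct4 than in wild-type ESC (3.41 to 4.3), and Sall4 was 35.0-fold lower (24.7 to 51.2). Against wild-type ESC 9 members were measured and 9 were lower, with 22.1% of 11504 genes called lower and 16.1% higher (2544 and 1852 genes, or 2091 and 2329 with total counts), a count that again had to come out this way for members near 0. The KSM library with Oct4 had 0 counts of Lin28a, Dppa2, Dppa3, Dppa4 and Tcl1, 2 counts of Utf1 and 3 of Dppa5a. A count of 0 there allows up to 0.908 CPM. In fibroblasts with Oct4 alone L1td1 had 1 count and Sall4 had 0. That library has no day in its label and was counted on Ensembl identifiers. The part of the 3 other factors in the difference cannot be told apart from these and was not tested.

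**Figure D4:**
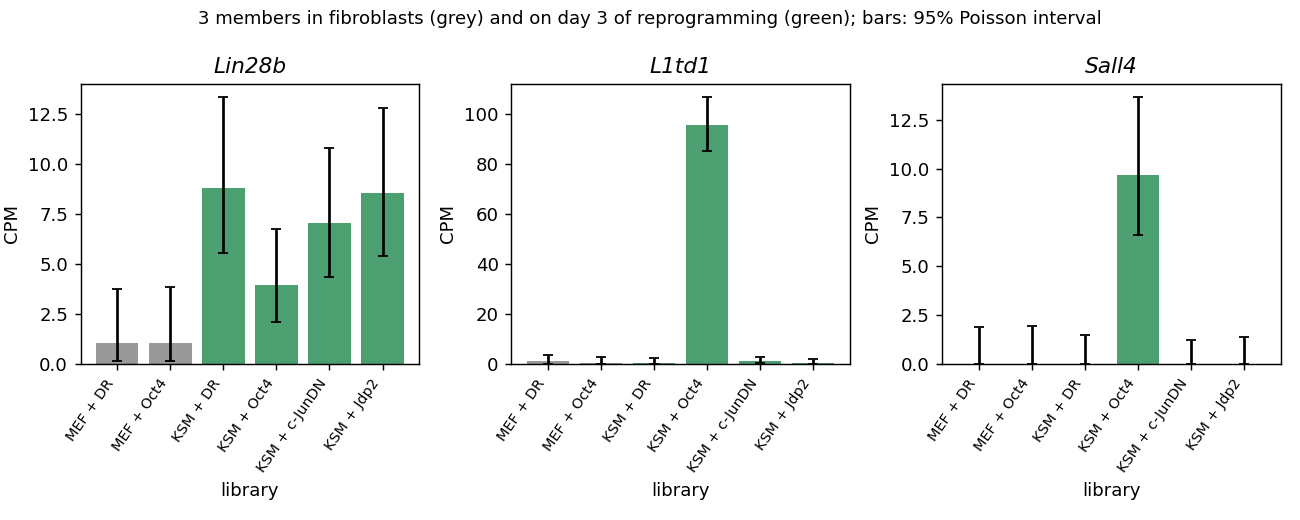
CPM of Lin28b, L1td1 and Sall4 in MEF with DR or Oct4 (grey bars) and in the 4 KSM libraries (green bars), 1 bar per library with its exact 95% Poisson interval. L1td1 at 95.6 and Sall4 at 9.69 CPM stand out with Oct4, while Lin28b lies between 3.93 and 8.82 CPM in all 4 KSM libraries.

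Lin28b was the member found in every KSM library, while its paralog Lin28a had 0 to 3 counts there. Lin28b had 22 counts with DR (8.82 CPM, 5.53 to 13.4), 21 with c-JunDN (7.07 CPM, 4.37 to 10.8), 23 with Jdp2 (8.53 CPM, 5.41 to 12.8) and 13 with Oct4 (3.93 CPM, 2.1 to 6.73). In the 6 MEF libraries it had 0 to 6 counts, 0 to 1.07 CPM. Against MEF with DR it was called higher in KSM with DR, the 1 measured member, with a ratio of 8.55 that rests on 2 counts in MEF (2.1 to 75.0). In that comparison 18.7% of 11476 genes were called higher and 19.9% lower. On the TPM scale Lin28b stayed under the minimum of 5. Its level in wild-type ESC, 4.37 CPM, lay inside the range of the KSM libraries, and the uninduced line stood at 35.6 CPM.

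With Oct4, Lin28b was 2.24-fold lower than with DR (1.08 to 4.84), a log2 change of -0.99 that was not called here. The counts of 13 and 22 put it at -1.01 with total counts and -1.04 with DESeq2 size factors, which would be called. With c-JunDN the change was -0.28 (1.25-fold lower, 0.655 to 2.39) and with Jdp2 -0.04 (1.03-fold lower, 0.549 to 1.94), and neither was called. Across all genes c-JunDN had 1.69% higher and 1.75% lower and Jdp2 3.13% and 1.34%. Lin28b was the 1 measured member in both comparisons, and the other 9 had at most 3 counts in each of these libraries. At 21 to 23 counts a difference inside these intervals was not detectable.

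The surrounding lists in KSM with Oct4 are read beside the 4.77% of all measured genes called higher and 6.8% called lower. Of 23 measured ESC-restricted genes 5 were higher and 3 lower than with DR, with a median log2 change of 0.50 against 0.07 over all genes. Tdh went from 0.802 to 19.4 CPM (3.50), Nr0b1 from 0 to 6.96 CPM (2.99) and Pipox from 2.41 to 24.5 CPM (2.91). Of 11 upstream regulators 4 were higher and 1 lower, with the introduced Pou5f1 first, then Zfp42 (2.03) and Tcf7l1 (2.03). Zfp42 stood at 6.36 CPM, and Nanog at 0.303 CPM was at the level of 1 count. Tdh, Nr0b1, Pipox and Zfp42 were under 5 CPM with DR and passed the minimum only through the Oct4 library. They could not have been called lower, and their calls are descriptions. Of the 16 let-7 processing genes 0 were called, and of 23 let-7 targets 2 were lower, Thbs1 (-2.24) and Ccnd1 (-1.09). Of the 2-cell-stage genes 1 was measured and it was not called.

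Between KSM and MEF, both with DR, 8 of 22 let-7 targets were higher and 2 lower, with a median of 0.49. There, 18.7% of all measured genes were called higher and 19.9% lower. Thbs1 (-5.85), the introduced Myc (4.81) and E2f2 (4.36) changed most. Of the 16 processing genes 2 were higher, Hnrnpa1 (1.64) and Dis3l2 (1.30), with a median of 0.41, and 5 were higher with total counts. Fibroblast markers summed to 17350 to 64270 CPM in MEF and to 1907 to 2741 CPM in KSM, and their part in these differences was not tested.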

How the data were processed

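RNA was measured in 13 libraries of mouse ESC, MEF and KSM cultures, with 1 library per group taken from the labels. The submitters' processing notes name mm9 and RSEM 1.1.21 for these libraries, and the aligner of the RNA reads is not given in the sources used here. For 12 libraries the authors deposited an expected count and a fraction of transcripts per gene. The fraction was multiplied to TPM here. The Oct4 MEF library was deposited by the authors with expected counts, TPM and FPKM on 27729 Ensembl IDs, and the FPKM values were not used. Of these IDs 27247 have a symbol, and 19668 names were shared with the other libraries, 1704 of them through a synonym, holding 96.9% of that library's counts.

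Expected counts were rounded and scaled with TMM factors of edgeR 4.0.16 in R 4.3.3, computed on the shared names. Reads split among similar genes gave non-whole counts in 4 of 9 libraries with Lin28a, 4 of 9 with Dppa5a, 3 of 12 with Lin28b and 3 of 11 with L1td1, at a tolerance of 0.005. Changes used a pseudocount of 1, a minimum of 5 CPM and a 2-fold threshold. Ratios have exact conditional binomial 95% intervals and levels exact Poisson intervals, which cover counting error only. A ratio against 0 counts is a lower bound at 3 counts per library. Scripts were tested on simulated data.

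The members and lists were chosen with earlier results of these data known. Named genes are the 10 members, up to 3 measured genes of each list with the largest change, the genes most like the members, and the introduced factors. A gene that the rule names is not reported here. Chromosomal neighbours, markers at 0 or defining a cell type, and single markers beside the marker sums are named outside this rule. Those neighbours, those single markers and the level of Nanog in KSM were chosen after their values were seen. Alternatives were total-count scaling, DESeq2 1.42.0 size factors, the authors' TPM, pseudocounts of 0.5 and 5, other minimums, the wild-type ESC control, and other orderings. Peaks were not placed at the members, since no mm9 annotation was used here.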

Additional observations from a re-analysis of the deposited data

How the results depend on the processing

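Leaving out a replicate was not possible with 1 library per group. No paired analysis was possible because each group has 1 library and no replicate numbers are shared. Of the members' call counts under the alternatives, 196 stayed within 1.5 times and 26 moved, where the 26 include the order by level and the most alike genes. With 0 members measured, as in each comparison of MEF with an introduced factor, another pseudocount or a higher minimum had to give 0 calls. Those settings were bound to stay the same and are part of the 196. Of the single-gene values, 266 stayed within counting error, 84 moved and 3 reversed. A change of the minimum cannot alter a single-gene value, so those settings were bound to stay the same and are part of the 266. With wild-type ESC as the control, the induced line had 3 members higher and 5 lower, and the log2 change reversed to 2.84 for Lin28a, 1.32 for Lin28b and 1.32 for Utf1. With no minimum or a minimum of 1 CPM, c-Jun MEF had 1 member higher and 2 lower, Jdp2 MEF 2 lower, Oct4 MEF 1 lower, KSM with c-JunDN 1 higher and 1 lower, and KSM against MEF, both with DR, 1 lower. These calls rest on a few counts. On the TPM scale c-Jun MEF had 1 member higher, KSM with Oct4 had 1 higher and KSM against MEF 0 higher. A minimum of 10 CPM gave the same 1 and 0 for those KSM comparisons. KSM with Oct4 had 1 member lower with total counts, with DESeq2 size factors and with a pseudocount of 0.5, which is Lin28b in each. Ordered by CPM, 4 of 10 members held the same rank in wild-type ESC. With Spearman's measure of likeness, 0 of the 10 genes most like the members were shared. Depth limits the fibroblast and KSM values, where most members had 0 to 3 counts.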

Other observations

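Genes next to the members on the chromosome, in the RefSeq order of GRCm38.p6, did not move as 1 group between the induced and uninduced line. Of 18 neighbours that are no members, 13 were measured, 6 were lower, 3 higher and 4 neither. Beside this, 19.7% of all measured genes were called lower and 21.3% higher. Dppa3 lies between Gdf3, a growth factor of the TGF-beta family, and Nanog, a core pluripotency factor. In the uninduced line Gdf3 stood at 144.3 CPM and Nanog at 359.9 CPM, while Dppa3 stood at 2.97 CPM. In wild-type ESC the 3 genes stood at 83.7, 509.6 and 90.0 CPM. Morc1, the neighbour of Dppa2, went from 128.0 to 11.7 CPM with doxycycline (log2 -3.34), and Ooep, the neighbour of Dppa5a, from 113.2 to 11.0 CPM (-3.25). The neighbours of Sall4 did not follow it, with Atp9a at 0.07 and Zfp64 at -0.14.

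Likeness to the members' mean pattern was measured with Pearson's r over 12 libraries, which share 3 ESC libraries with high values, among 10747 genes. The 10 most alike were Foxh1 (0.993), Fkbp6 (0.992), Pla2g1b (0.99), Zfp473 (0.99), Psma8 (0.989), Zfp42 (0.989), Zfp936 (0.988), Gpa33 (0.988), Tdgf1 (0.987) and Rbmxl2 (0.987). Of single members, Utf1 was most like Zscan4f (0.992) and Dnmt3l (0.988), both high in the uninduced line, and Lin28a most like Grhl2 (0.991) and Dnmt3l (0.972). Dppa3, high in wild-type ESC, was most like AA467197 (0.977) and Stra8 (0.973). L1td1 was most like Gm6792 (0.974) and Lrmp (0.971), and Sall4 like Zfp42 (0.996) and Arl6ip1 (0.981). Dppa2 was most like Rbmxl2 (0.996) and Foxh1 (0.994), Dppa4 like Pla2g1b (0.997) and Rbmxl2 (0.996), Dppa5a like Triml2 (0.992) and Foxh1 (0.991), Tcl1 like Accsl (0.999) and Kirrel2 (0.999), and Lin28b like Trh (0.946) and Psmc5 (0.946). These values are descriptions.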
